A study of Mus musculus with 6 samples.

Results

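The genes described here are 39 members of the autophagy and mitophagy machinery, chosen by name from a table of 52459 gene symbols. They cover the proteins that start an autophagosome, supply its membrane, attach the LC3 and GABARAP tags to it, and bring cargo to it, including damaged mitochondria. The choice was made with earlier results of these data known. RNA was sequenced from bone marrow derived macrophages of C57BL/6 mice, cultured in GM-CSF, a growth factor for myeloid cells. Of 6 libraries, 3 were controls that received vehicle and 3 received piceatannol, a plant stilbene related to resveratrol and known to inhibit the kinase Syk, from day 7 of culture overnight. The groups shared strain, growth factor and culture time and differed in the agent. Not given in the sources used here were the dose, the vehicle, the age of the mice and whether the libraries came from separate animals or cultures. The p-values therefore measure the spread between these 6 libraries, which may be technical.

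Autophagy encloses cytoplasm in a membrane that closes into an autophagosome and fuses with a lysosome. The ULK kinase complex starts the process, a class III phosphatidylinositol 3-kinase marks the membrane, ATG2 and ATG9 supply lipid, and a ubiquitin-like conjugation system attaches LC3 and GABARAP proteins. Cargo receptors such as p62 bind both the cargo and LC3. In macrophages the pathway is known for the removal of protein aggregates, intracellular bacteria and damaged mitochondria, the last of which is called mitophagy.

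The libraries held 33276569 to 58697084 counts each. All 8 macrophage markers were detected, with a summed level of 18595 to 22569 CPM (counts scaled to library size) in control and 13197 to 14671 CPM in piceatannol libraries. Of those markers 6 fell, among them Adgre1, which encodes F4/80, and 2 rose. Markers of other cells moved with the treatment as well. The summed level of 9 dendritic cell markers went from 1681 to 1818 CPM in control to 821 to 1019 CPM in piceatannol libraries, with 6 lowered and 1 raised. The 9 neutrophil markers went from 259 to 604 CPM to 34.9 to 42.8 CPM, with 8 lowered, and the 6 stromal markers from 2210 to 2464 CPM to 520 to 582 CPM, with 5 lowered. The T and B cell list had 3.14 to 4.23 CPM in control and 2.15 to 2.97 CPM in piceatannol libraries, with 6 members lowered and 1 raised, and of the erythroid list the single member tested rose. The mitochondrial genome contributed 0.82% ± 0.045 of all counts in control and 2.15% ± 0.431 with piceatannol (SD of 3 libraries). Its ribosomal RNA genes alone went from 0.060% ± 0.0012 to 0.707% ± 0.182 of all counts. The part of these shifts in the results below was not tested. In such bulk samples fewer cells of a type and less RNA per cell cannot be told apart.

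All 5 genes grouped here as cargo receptors, which bring cargo to the autophagosome, rose at least 2-fold, whereas 1 of the 10 conjugation genes did. This holds for the 5 chosen, since receptors outside the 39 genes, given below, went different ways. Of these receptors Tax1bp1 fell short of 2-fold in 2 of 17 alternative fits. Receptors grouped under mitophagy went different ways, with log2 fold changes (piceatannol minus control) of 2.45 for Bnip3, 0.31 for Bnip3l and -0.66 for Fundc1. All 39 members passed the filter on low counts, the lowest count of a member in any library being 177. Of the 39, 23 rose and 9 fell at an adjusted p under 0.05; the test was edgeR's quasi-likelihood test, adjusted by Benjamini-Hochberg over 15380 genes. The 32 called members are 82.1% of the list. Among all tested genes 77% passed, so the share of members called is near the background. The direction was less even among the members, of which 59.0% rose and 23.1% fell, than among all genes, of which 38.8% rose and 38.3% fell. At least 2-fold rises were found for 14 members (35.9%), against 17.5% of all genes, and for 12 to 15 members in the alternative fits. No member fell at least 2-fold, against 16.6% of all genes, and the count of such falls was 0 as well at an unadjusted p under 0.05 in edgeR and at an adjusted p under 0.05 in DESeq2 and limma-voom. The median log2 fold change, piceatannol minus control, was 0.46 over the members and 0.01 over all genes. Because the members were chosen with earlier results of these data known, these shares and medians describe the list. They are no test of it against all genes. The values of the 2 groups did not overlap for 32 of 39 members, where 79% of all genes had no overlap.

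**Figure D1:**
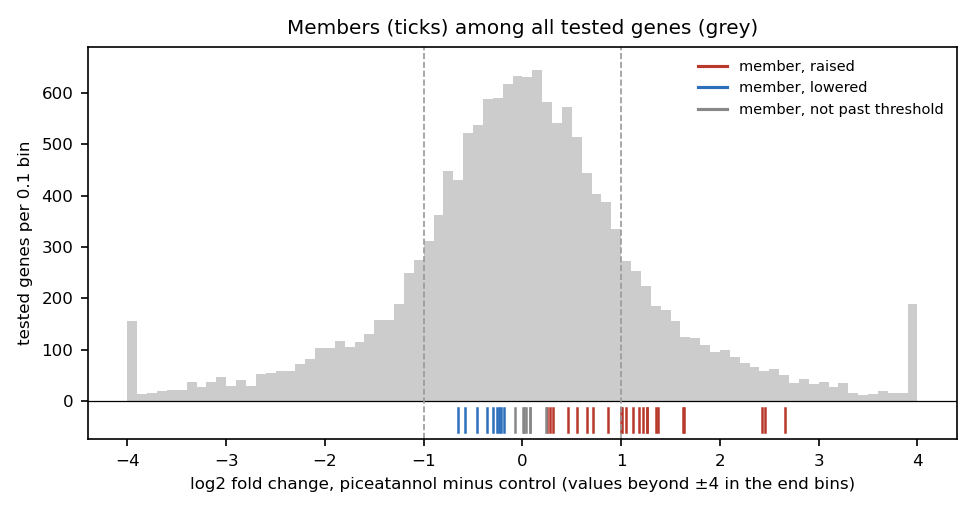
Histogram of the log2 fold change (piceatannol minus control) of the 15380 tested genes, in grey, with each of the 39 members as a tick below it, coloured by its call. Dashed lines mark a 2-fold change. The members reach 2.66 on the right and stop at -0.66 on the left.

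Together the 39 genes took 0.357% ± 0.0033 of all counts in control and 0.856% ± 0.03 with piceatannol (SD of 3 libraries). Sqstm1 alone went from 0.0699% to 0.432%. The other 38 members went from 0.287% ± 0.0011 to 0.424% ± 0.0026. The spread between libraries of a group was small, with a median coefficient of variation of 4.17% over members and groups. The widest was 18.4%, for Gabarapl2 in the piceatannol libraries.

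**Figure D2:**
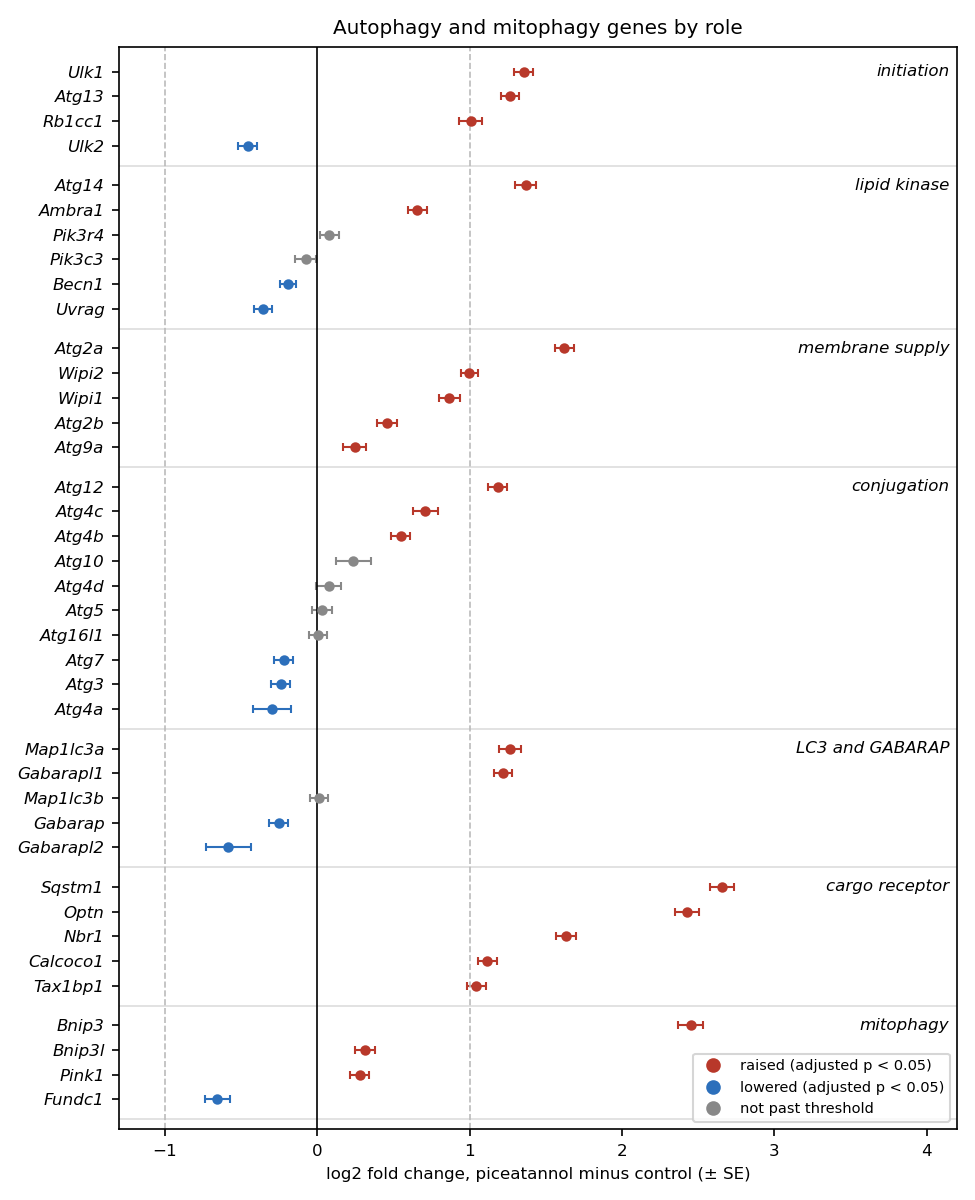
Log2 fold change (piceatannol minus control, with its standard error) of the 39 members, grouped by role and coloured by call at an adjusted p under 0.05. Dashed lines mark a 2-fold change. All 5 cargo receptors lie past the right line, and of the conjugation genes only Atg12 lies past it.

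The sequence just upstream of the start that RefSeq annotates is shown for the 3 members with the highest and the 1 with the lowest fold change, to set their promoters side by side. The sequences are those of RefSeq on GRCm38.p6, read 5′ to 3′ on the strand of the gene, and only bases outside every annotated exon are printed. They come from chr11:50210828-50210889 (minus strand) for Sqstm1, chr7:138909520-138909756 (minus) for Bnip3, chr2:5064118-5064367 (minus) for Optn and chrX:17572008-17572152 (minus) for Fundc1. The Fundc1 stretch lies inside the gene as GENCODE M21 draws it, in an intron of longer transcripts that begin farther upstream, the first at 17572325. Capitals mark CACGTG, the core of the CLEAR element read by the lysosomal regulator TFEB. On both strands CACGTG also contains ACGTG, a form of the hypoxia response element core. The other form, GCGTG, was neither searched nor marked.
Sqstm1: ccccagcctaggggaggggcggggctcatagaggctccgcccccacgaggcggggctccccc
Bnip3: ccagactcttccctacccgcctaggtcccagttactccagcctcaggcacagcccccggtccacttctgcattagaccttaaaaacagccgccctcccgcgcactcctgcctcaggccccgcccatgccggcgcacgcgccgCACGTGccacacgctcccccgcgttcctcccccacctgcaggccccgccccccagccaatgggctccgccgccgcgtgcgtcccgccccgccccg
Optn: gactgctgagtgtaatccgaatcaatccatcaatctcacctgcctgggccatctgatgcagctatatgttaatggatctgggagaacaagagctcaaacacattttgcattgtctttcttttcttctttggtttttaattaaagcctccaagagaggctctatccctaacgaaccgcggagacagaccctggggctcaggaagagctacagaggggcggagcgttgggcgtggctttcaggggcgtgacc
Fundc1: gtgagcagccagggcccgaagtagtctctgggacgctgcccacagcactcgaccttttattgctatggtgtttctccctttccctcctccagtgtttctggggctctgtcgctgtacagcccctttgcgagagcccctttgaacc
The Sqstm1 stretch was 79% G and C, that of Bnip3 72.6% and that of Fundc1 57.9%, and the Optn stretch was lower than these. Bnip3 held 24 CpG dinucleotides in 237 bases, Optn 8 in 250, Fundc1 5 in 145 and Sqstm1 4 in 62.

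Promoter entries were matched for 32 of the 39 members, and 7 motifs were searched on both strands in the 250 bases before each RefSeq start. Some windows lie inside the gene as GENCODE M21 draws it, wholly for Atg7 and Tax1bp1 and mostly for Gabarap and Atg9a. A match counted below need not lie upstream of such a gene. CACGTG was present for 4 of the 32 (12.5%), against 6.9% of 27025 genes. Those 4 were Bnip3, with a log2 fold change of 2.45, and Atg3 (-0.24), Atg5 (0.03) and Atg7 (-0.22), so 1 of them rose. ACGTG, which every CACGTG contains, was present for 13 members (40.6%), against 18.5% of genes. These 13 went both ways. Atg2b (0.46), Atg9a (0.25), Bnip3 (2.45), Nbr1 (1.64) and Tax1bp1 (1.04) rose. Atg3 (-0.24), Atg4a (-0.30), Atg7 (-0.22), Gabarap (-0.25), Gabarapl2 (-0.58) and Uvrag (-0.36) fell. Atg5 and Pik3r4 did not pass the test. TGACNNNGC, the core of the antioxidant response element read by NRF2, was present for Atg13, Tax1bp1 and Ulk2, or 9.4% of members against 11.5% of genes. TGAGTCA, an AP-1 element, and GAANNTTC, the core of the heat shock element, were in none of the 32 windows and in 5.2% and 7.7% of genes. TGATGNAA, the core read by ATF4 and CHOP, and GTAAACA, a FOXO element, were also in none of them and in 3.9% and 3.5% of genes. The median G and C content was 58.2% over the 36 promoters of members and 52.4% over all 32851. The median CpG count per window was 15 for the members and 6 for all, and ACGTG itself holds a CpG. A match describes letters in these windows and does not show a bound site.

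All 5 cargo receptors among the members rose at least 2-fold. Sqstm1 encodes p62, which gathers ubiquitinated cargo and binds LC3 (chromosome 11, 50199366 to 50210827, minus strand). It had 661, 706 and 710 CPM in control and 4181, 4715 and 4199 CPM in piceatannol libraries, so that the lowest treated library stood far above every control. Its log2 fold change was 2.66 ± 0.077 (SE; edgeR's quasi-likelihood adjusted p = 5.99e-17). By mean FPKM, a level scaled by gene length, Sqstm1 ranked 184 of 15380 genes in control and 23 in piceatannol libraries. Exons of Mrnip lie on the opposite strand over 17.3% of its exonic bases, and Mrnip had 1631 counts over all 6 libraries.

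Optn encodes optineurin, a receptor for ubiquitinated bacteria and mitochondria (chromosome 2, 5020642 to 5064051, minus strand). It was a low gene in control, with 8.74, 7.93 and 8.53 CPM, and had 46.2, 44.2 and 45.1 CPM with piceatannol. The log2 fold change was 2.42 ± 0.079 (SE), a 5.37-fold rise. Nbr1 encodes a receptor related in domain layout to p62 (chromosome 11, 101552149 to 101581951, plus strand). Its level was 113, 104 and 116 CPM in control and 367, 319 and 350 CPM in piceatannol libraries, a log2 fold change of 1.64 ± 0.066 (SE). Tax1bp1, encoding a receptor for ubiquitinated cargo, had 194, 191 and 185 CPM in control and 409, 402 and 363 CPM with piceatannol. Calcoco1, encoding a receptor known for selective autophagy of the endoplasmic reticulum, had 57.8, 55.7 and 60.1 CPM in control and 123, 121 and 132 CPM with piceatannol. The groups were apart in both genes, with log2 fold changes of 1.04 for Tax1bp1 and 1.12 for Calcoco1. The highest adjusted p of the 5 receptors was 4.1e-12, for Tax1bp1 (edgeR's quasi-likelihood test).

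The summed FPKM of the 5 receptor genes went from 258 ± 7.81 in control to 1412 ± 91.0 in piceatannol libraries (SD of 3 libraries). Sqstm1 made up 79.8% ± 0.93 of this sum in control and 90.7% ± 0.81 with piceatannol. The share of Tax1bp1 went from 7.37% to 2.74% although its own level rose, and the share of Optn was 0.87% in control and 0.84% with piceatannol.

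**Figure D3:**
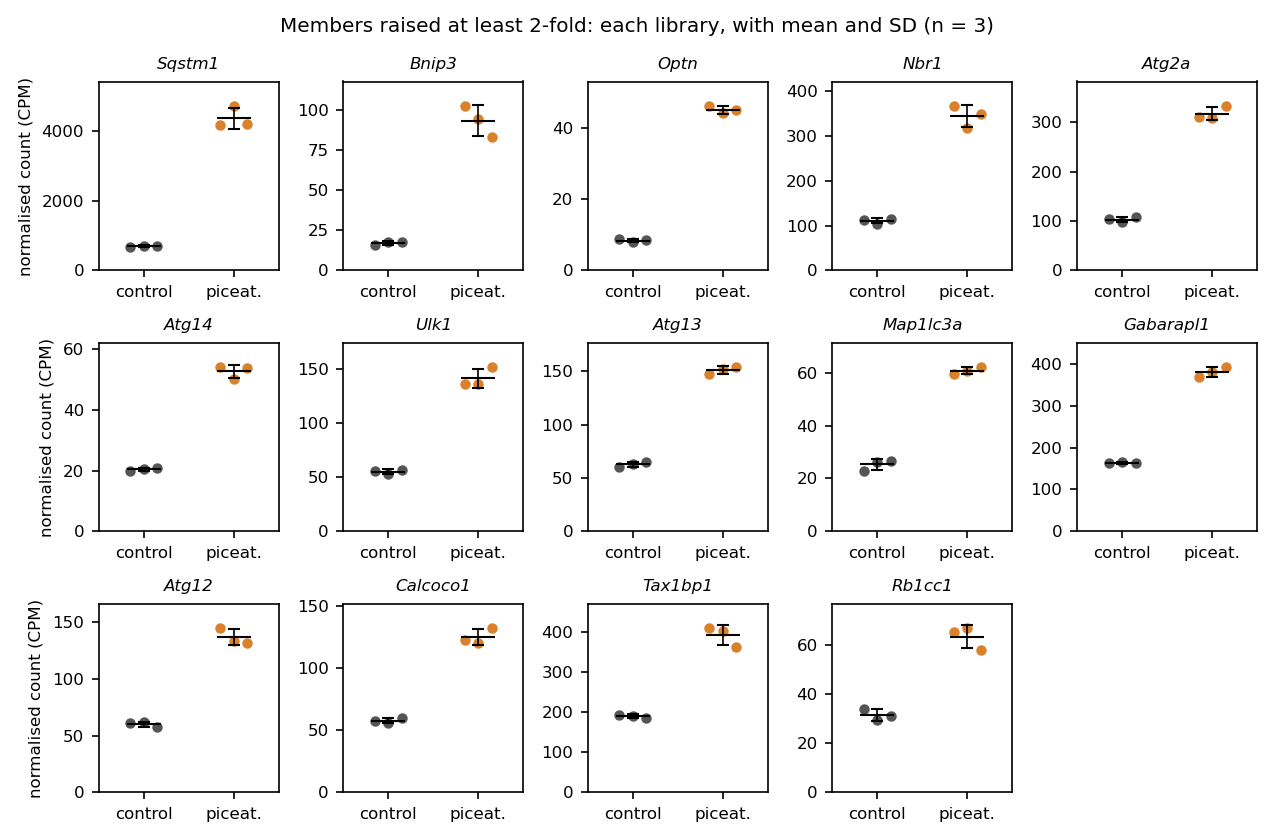
Normalised counts (CPM) in each library for the 14 members raised at least 2-fold, with points for libraries, a bar for the mean and whiskers for the SD of 3 libraries, on axes that start at 0. In every panel the 3 piceatannol libraries lie above the 3 controls, from Sqstm1 at a log2 fold change of 2.66 to Rb1cc1 at 1.01.

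The LC3 and GABARAP genes, whose products are joined to the autophagosome membrane, went different ways. Of the 5, 2 rose, 2 fell and 1 did not pass the test. Gabarapl1 (chromosome 6, 129533160 to 129542346, plus strand) had 162, 165 and 162 CPM in control and 369, 381 and 392 CPM in piceatannol libraries. The log2 fold change was 1.22 ± 0.057 (SE; edgeR's quasi-likelihood adjusted p = 1e-13). Map1lc3a, encoding LC3A (chromosome 2, 155276297 to 155278073, plus strand), had 23.0, 26.3 and 26.6 CPM in control and 59.3, 60.7 and 62.1 CPM with piceatannol, a log2 fold change of 1.26 ± 0.071 (SE). Both genes were apart between the groups by many times the spread of the libraries.

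Map1lc3b, encoding LC3B, the form most used as an autophagosome marker, had 107, 114 and 120 CPM in control and 112, 113 and 119 CPM with piceatannol. The groups overlapped, and the log2 fold change of 0.01 ± 0.061 (SE) had an adjusted p of 0.856 in edgeR's quasi-likelihood test. Gabarap, the member of the family with the highest FPKM, had 471, 517 and 504 CPM in control and 406, 431 and 414 CPM with piceatannol. This was a fall of 0.25 on the log2 scale with no overlap (adjusted p = 0.000818, edgeR's quasi-likelihood test). Gabarapl2 had 6.38, 8.13 and 6.97 CPM in control and 4.2, 5.81 and 4.38 CPM with piceatannol, a fall of 0.58 ± 0.147 (SE). Its level is uncertain, because 3 processed pseudogenes share at least 96.6% identity with it over 349 to 352 bases of its 1677-base transcript, and the treatment of shared reads was not given in the sources used here.

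Per length, the family's summed FPKM went from 391 ± 16.7 in control to 477 ± 12.6 with piceatannol (SD of 3 libraries). Its makeup shifted from Gabarap towards Gabarapl1. The share of Gabarap went from 69.1% ± 0.47 to 46.7% ± 0.81 and that of Gabarapl1 from 20.8% ± 0.73 to 39.1% ± 0.64. Map1lc3a took 5.48% in control and 10.6% with piceatannol, and Map1lc3b 3.87% and 3.15%. In every library of both groups Gabarap had the highest FPKM of the 5, and Gabarapl1 came second.

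**Figure D4:**
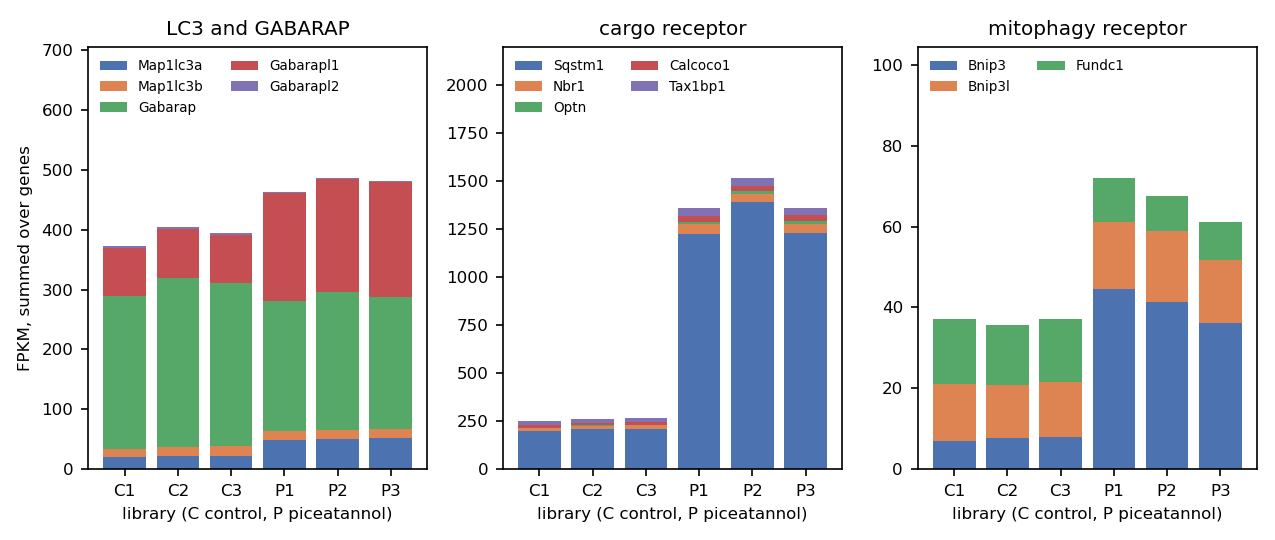
FPKM of the LC3 and GABARAP genes, the cargo receptors and the mitophagy receptors among the members in each library, stacked by gene (C, control; P, piceatannol). The receptor sum is mostly Sqstm1, at 79.8% in control and 90.7% with piceatannol, while in the first panel Gabarapl1 widens from 20.8% to 39.1% of the family. In the third panel Bnip3 widens from 20.6% to 60.6%.

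Of the 4 members in the ULK complex, which starts autophagosome formation, 3 rose at least 2-fold and 1 fell. The third of these rises, that of Rb1cc1, was under 2-fold in 10 of 17 alternative fits, with log2 fold changes from 0.74 to 1.07 over all of them. Ulk1, encoding the kinase (chromosome 5, 110784488 to 110810097, minus strand), had 56.1, 52.9 and 56.9 CPM in control and 137, 136 and 152 CPM with piceatannol. Its relative Ulk2 had 62.3, 65.0 and 64.6 CPM in control and 44.3, 49.0 and 46.5 CPM with piceatannol. The related kinase genes thus had log2 fold changes of opposite sign, 1.36 ± 0.064 for Ulk1 and -0.46 ± 0.064 for Ulk2 (SE). Atg13, encoding the adaptor of the complex and the highest of the 4 by FPKM, had 60.5, 63.1 and 64.7 CPM in control and 147, 152 and 154 CPM with piceatannol. Rb1cc1, encoding the scaffold FIP200, had 34.0, 29.4 and 31.1 CPM in control and 65.3, 67.0 and 58.2 CPM with piceatannol. Atg13 had a log2 fold change of 1.27 and Rb1cc1 of 1.01. The adjusted p of the 4 genes lay at or below 1.95e-06, the value of Ulk2 (edgeR's quasi-likelihood test). Atg101, encoding a further subunit of the complex and not a member, rose less, with a log2 fold change of 0.83.

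The genes of the lipid kinase complex were split. Of the 6, 2 rose, 2 fell and 2 did not pass the test. Atg14, whose product directs the complex to autophagosome formation, had 20.0, 20.5 and 20.7 CPM in control and 54.1, 50.1 and 53.9 CPM with piceatannol, a log2 fold change of 1.37 ± 0.069 (SE). Uvrag, whose product takes the place of ATG14 in the endosomal form of the complex, fell by 0.36 ± 0.058 on the log2 scale (SE), from 126 ± 4.81 to 98.3 ± 1.76 CPM (SD of 3 libraries). The subunits that both forms share differed by at most 0.19 on the log2 scale. Becn1, encoding Beclin 1 and the highest of the 6 by FPKM, had 174, 169 and 167 CPM in control and 149, 147 and 150 CPM with piceatannol, a fall of 0.19 that passed the test (adjusted p = 0.00378, edgeR's quasi-likelihood test). Pik3c3, encoding the catalytic subunit VPS34, had 45.9, 45.9 and 43.4 CPM in control and 46.1, 42.1 and 40.2 CPM with piceatannol. Pik3r4, encoding VPS15, had 47.6, 49.5 and 48.3 CPM in control and 48.9, 51.9 and 52.9 CPM with piceatannol. In both the groups overlapped, with adjusted p of 0.335 and 0.26 in edgeR's quasi-likelihood test. Ambra1, encoding a regulator that binds Beclin 1, rose 1.58-fold.

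All 5 members grouped under membrane supply rose. Atg2a, encoding a protein that carries lipid into the growing membrane (chromosome 19, 6241668 to 6262335, plus strand), had 103, 97.8 and 108 CPM in control and 311, 308 and 333 CPM with piceatannol. Its log2 fold change of 1.62 ± 0.061 (SE; edgeR's quasi-likelihood adjusted p = 3.36e-15) was the highest of this role. Its relative Atg2b had 70.5, 60.5 and 66.8 CPM in control and 94.1, 86.6 and 91.0 CPM with piceatannol, a log2 fold change of 0.46. Of the phosphoinositide-binding proteins, Wipi2, which recruits the ATG16L1 complex, had 72.7, 75.2 and 73.5 CPM in control and 144, 148 and 150.4 CPM with piceatannol. Wipi1 had 27.8, 27.5 and 28.8 CPM in control and 50.7, 52.6 and 50.4 CPM with piceatannol. Wipi2, at a log2 fold change just under 1.00, lay nearest below a 2-fold change, and Rb1cc1 at 1.01 nearest above it. Atg9a, encoding the scramblase of the vesicles that seed the membrane, had the smallest rise of the 5, at 0.25 ± 0.074 (SE; edgeR's quasi-likelihood adjusted p = 0.00546).

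Among the 10 genes of the conjugation system 3 rose, 3 fell and 4 did not pass the test, and the median log2 fold change was 0.05. Atg12, encoding the ubiquitin-like protein that is joined to ATG5, was the only one of them to rise at least 2-fold. It had 61.0, 61.6 and 57.7 CPM in control and 145, 133 and 132 CPM with piceatannol, a log2 fold change of 1.18 ± 0.062 (SE; edgeR's quasi-likelihood adjusted p = 5.83e-13). The genes of its partners in the ATG12, ATG5 and ATG16L1 complex did not pass the test. Atg5 had 58.0, 58.3 and 59.5 CPM in control and 63.5, 57.9 and 58.2 CPM with piceatannol. Atg16l1 had 67.8, 68.4 and 70.9 CPM in control and 68.3, 69.0 and 70.4 CPM with piceatannol. The groups overlapped in both, with adjusted p of 0.662 for Atg5 and 0.952 for Atg16l1 in edgeR's quasi-likelihood test.

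The enzymes that activate and transfer these proteins differed less. Atg7, encoding the E1-like enzyme, fell by 0.22 and Atg3, encoding the E2-like enzyme for LC3, by 0.24 on the log2 scale, with adjusted p of 0.00349 and 0.00127 (edgeR's quasi-likelihood test). Atg10, encoding the E2-like enzyme for ATG12, had 8.52, 8.82 and 8.34 CPM in control and 11.4, 10.1 and 8.76 CPM with piceatannol. Its log2 fold change of 0.24 ± 0.115 (SE) missed the threshold at an edgeR quasi-likelihood adjusted p of 0.0678 and passed it under 4 alternatives, with adjusted p between 0.0077 and 0.028 there and between 0.0077 and 0.319 over all of them. The ATG4 proteases, which trim LC3 before conjugation and release it later, were split. Atg4b rose 1.46-fold and Atg4c 1.64-fold. Atg4d had 30.7, 31.0 and 31.8 CPM in control and 28.8, 33.5 and 36.1 CPM with piceatannol, which overlap (adjusted p = 0.408, edgeR's quasi-likelihood test). Exons of Kri1, with 16378 counts in all, lie on the opposite strand over 19.3% of its exonic bases. Atg4a fell by 0.30 ± 0.123 on the log2 scale (SE; edgeR's quasi-likelihood adjusted p = 0.0343), a call that 7 alternatives lost. Its value is uncertain in any case, since a copy named Atg4a-ps is 99.3% identical over 2115 of its 2202 transcript bases.

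The 4 mitophagy genes ranged from a 5.47-fold rise to a fall. Bnip3, encoding a receptor on the outer mitochondrial membrane and known as a hypoxia-induced gene (chromosome 7, 138890836 to 138909519, minus strand), had 15.8, 17.5 and 17.9 CPM in control and 102, 94.6 and 83.1 CPM with piceatannol. The log2 fold change was 2.45 ± 0.082 (SE; edgeR's quasi-likelihood adjusted p = 8.91e-16). Copies of parts of Bnip3 exist, the longest in a noncoding RNA gene that is 98.3% identical over 858 of 1756 transcript bases, so the level carries that limit. Bnip3l, encoding the related receptor NIX, had 54.0, 50.1 and 52.6 CPM in control and 65.4, 68.2 and 61.1 CPM with piceatannol, a log2 fold change of 0.31. Pink1, encoding the kinase that marks depolarized mitochondria and the highest of the 4 by mean FPKM over all 6 libraries, had 61.6, 63.8 and 62.5 CPM in control and 72.4, 78.2 and 77.4 CPM with piceatannol. The groups did not overlap in either gene, although the changes were small. Pink1 was the highest of the 4 by FPKM in control only. In the piceatannol libraries Bnip3 was higher, with 44.5, 41.3 and 36.1 FPKM against 26.6, 28.9 and 28.4 FPKM for Pink1. Fundc1, encoding an outer membrane receptor known from hypoxia-induced mitophagy (chromosome X, 17556564 to 17572325, minus strand), had 38.2, 34.9 and 37.1 CPM in control and 26.1, 20.8 and 22.9 CPM with piceatannol. Its log2 fold change of -0.66 ± 0.083 (SE; edgeR's quasi-likelihood adjusted p = 4.46e-07) was the lowest of the 39 members.

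The order by FPKM of the 3 outer membrane receptors among the members was inverted between the groups. In each control library Fundc1 was highest and Bnip3 lowest, with shares of 42.6% ± 1.00 and 20.6% ± 1.61 of their summed FPKM. In each piceatannol library Bnip3 was highest and Fundc1 lowest, with 60.6% ± 1.47 and 14.6% ± 1.43 (SD of 3 libraries). Bnip3l lay between them, with 36.9% in control and 24.8% with piceatannol. The sum went from 36.7 ± 0.88 to 66.9 ± 5.43 FPKM. The share of counts from mitochondrially encoded genes, ribosomal RNA included, was 0.82% in control and 2.15% with piceatannol. It differed between the same libraries, and its part in these values was not tested.

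For 8 pairs of members the ratio of their FPKM was compared between the groups, which sets aside what moves both genes of a pair alike. The ratio of Bnip3 to Bnip3l was 0.498, 0.596 and 0.579 in control and 2.67, 2.36 and 2.32 in piceatannol libraries. That of Ulk1 to Ulk2 was 0.83, 0.751 and 0.813 in control and 2.84, 2.56 and 3.01 with piceatannol. In both pairs the gene with the lower level in control was the higher one with piceatannol. The ratio of Gabarapl1 to Gabarap went from 0.301 ± 0.0126 to 0.836 ± 0.0282 and that of Map1lc3a to Map1lc3b from 1.42 ± 0.0477 to 3.37 ± 0.0587 (SD of 3 libraries). Atg2a to Atg2b went from 2.74 ± 0.154 to 6.14 ± 0.319 and Sqstm1 to Nbr1 from 12.8 ± 0.992 to 26.1 ± 3.71. Gabarapl1 to Gabarapl2 went from 26.6 ± 2.99 to 93.5 ± 15.3, with the limit on Gabarapl2 given above. The exception in size was Wipi1 to Wipi2, at 0.908 ± 0.0324 in control and 0.831 ± 0.0266 with piceatannol, where the log2 fold changes of the 2 genes were 0.87 and 1.00. The groups did not overlap in any of the 8 pairs. Among single genes 79% of all those tested had no overlap, and the share over other gene pairs was not computed. The two-sided exact permutation p was 0.1 for each pair, the smallest that 3 against 3 libraries allow, and 0.1 after Benjamini-Hochberg adjustment over the 8, so these ratios are a description.

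**Figure D5:**
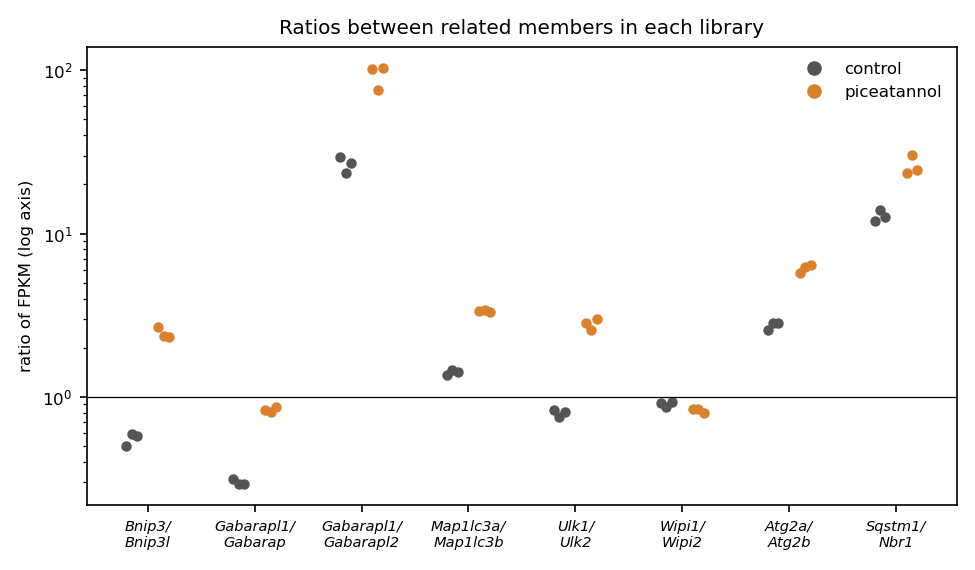
Ratio of FPKM between related members in each library, on a log axis, with control in grey and piceatannol in orange and a line at 1. For Bnip3 to Bnip3l and Ulk1 to Ulk2 the control points lie below 1 and the piceatannol points above it. The groups lie closest for Wipi1 to Wipi2, at means of 0.908 and 0.831.

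Genes of the same pathway outside the 39 were read from a list of 49, which holds fusion factors, receptors of other organelles and regulators. Calcoco2 was at 0 in every library and was not tested. Of the 48 tested genes 26 rose and 11 fell. Their median log2 fold change was 0.34, and 7 rose and 0 fell at least 2-fold, or 14.6% and 0% of the 48 against 17.5% and 16.6% of all genes. The share called, 77.1%, is near the 77% of all tested genes. This list too was chosen with earlier results of these data known, so its shares are a description. The 3 highest changes among called genes whose mean log2 CPM was 2 or more were those of Vmp1, Epg5 and Wdr45. Vmp1, encoding a scramblase of the endoplasmic reticulum needed for autophagosome formation, had 83.0, 81.8 and 87.5 CPM in control and 516, 549 and 461 CPM with piceatannol. Its log2 fold change of 2.60 ± 0.07 (SE) was close in size to that of Sqstm1. The miRNA gene Mir21a lies within its exons and was listed at 0 counts. Epg5, encoding a tether for fusion with the lysosome, had a log2 fold change of 1.44, and Wdr45, encoding a relative of the WIPI proteins, of 1.32. Wdr45b, encoding another such relative, was at 0.03 and did not pass (adjusted p = 0.642, edgeR's quasi-likelihood test).

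The 3 lowest changes of the list were those of Rab7, Phb2 and Vamp8. Other genes of late steps went both ways. Among them Epg5 was at 1.44, Tecpr1 at 1.25, Plekhm1 at 0.82, Vps33a at -0.29 and Vps41 at -0.62, and Stx17 did not pass the test. Rab7, encoding the small GTPase of late endosomes and lysosomes, had 449, 492 and 466 CPM in control and 246, 230 and 238 CPM with piceatannol, a fall of 0.98 ± 0.06 on the log2 scale (SE). A processed pseudogene is 98.4% identical to it over 622 of 2159 transcript bases. Vamp8, encoding a SNARE of autophagosome and lysosome fusion, fell by 0.72, and Phb2, encoding an inner mitochondrial membrane protein that can bind LC3, by 0.85. Over the 3 highest and the 3 lowest genes the highest adjusted p was 1.77e-09, for Vamp8 (edgeR's quasi-likelihood test).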

How the data were processed

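RNA was sequenced in 3 control and 3 piceatannol libraries, grouped by the sample titles. Per the labels' protocols, libraries were made from 1 µg of Trizol-extracted total RNA with a TruSeq kit. The authors deposited raw counts per gene symbol and FPKM values, in which counts are scaled by gene length and library size. Bcl2fastq, STAR, featureCounts and DESeq2 and the builds mm10 and GRCm38 are named in the submitters' processing notes. Versions, the annotation and the strand setting were not given in the sources used here, and without strand, reads of overlapping antisense genes cannot be told apart.

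Counts were filtered with filterByExpr (minimum count 10), scaled by TMM (factors 0.985 to 1.016) and tested two-sided with edgeR 4.0.16's quasi-likelihood test, without covariates, on 15380 genes. The procedure was tested on simulated data with 200 changed genes, where the share of false calls was above the nominal level. In the real data 77% of the tested genes were called, so that share does not carry over to them. An adjusted p close to the threshold is still read here as weak evidence of a change. CPM are counts scaled to a common library total after TMM. The standard error is the log2 fold change divided by the square root of F. The members and lists were chosen with earlier results of these data known. Every library's value is given for members past the threshold with at least a 2-fold change, the highest by FPKM of each role, those missing the threshold and those of preset pairs. From the pathway list the 3 highest and 3 lowest called genes are named. Alternatives were RLE, upper-quartile and no scaling factors, no filter and a filter at 5 CPM, DESeq2 1.42.0, limma 3.58.1 on voom values and on log2(FPKM + 1) and log2(FPKM + 0.1), the replicate number as a block, removal of each library's trend with gene length, stricter thresholds, and leaving out each library. Positions are those of GENCODE M21 on GRCm38. Copies were sought by BLAST of the longest coding transcript, at 95% identity over at least 200 bases. Protein sequences were not used here. The count and the number of libraries set the precision, with a common biological coefficient of variation of 7.34%.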

Additional observations from a re-analysis of the deposited data

How the results depend on the processing

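Under the 17 other fits, all 23 raised members stayed raised and 8 of 9 lowered ones stayed lowered, the exception being Atg4a. Calls were gained as well, for Atg10 in 4 fits, for Pik3r4 with the 5 CPM filter (adjusted p = 0.0451; 0.0451 to 0.943 over all fits) and for Atg5 with the length trend removed (adjusted p = 0.0419; 0.0419 to 0.982 over all fits), giving up to 25 raised members. Atg4a's adjusted p rose to 0.0782 with upper-quartile factors, 0.0769 with the 5 CPM filter, 0.172 with the length trend removed and between 0.0225 and 0.151 over the fits without 1 library, where leaving out control replicate 1 or 3 or piceatannol replicate 1 or 3 lost the call. Asking for at least a 2-fold change left 14 raised and 0 lowered members, and 2686 raised and 2548 lowered genes overall. Of those 14 members, 12 stayed at least 2-fold in all 17 fits. Tax1bp1 was at 0.98 on log2(FPKM + 1) and 0.95 with the length trend removed. Rb1cc1 was under 1 with library totals (0.98), no filter (0.98), DESeq2 (0.99), log2(FPKM + 1) (0.74), log2(FPKM + 0.1) (0.95), the length trend removed (0.86), and without control replicate 2 or 3 (0.96 and just under 1.00) or piceatannol replicate 1 or 2 (0.99 and 0.97). Wipi2 passed 2-fold in 4 fits. The median log2 fold change of the members moved from 0.46 to 0.37 on log2(FPKM + 1), to 0.39 with the length trend removed, and to between 0.40 (without control replicate 2) and 0.50 without 1 library. Changes of sign were found only for members that did not pass the test. With the length trend removed the values were -0.0053 for Pik3r4, -0.0805 for Atg16l1 and -0.048 for Map1lc3b. Without 1 library the values ran from -0.0037 to 0.16 for Atg4d, -0.014 to 0.052 for Atg5, -0.014 to 0.0202 for Atg16l1 and -0.035 to 0.048 for Map1lc3b. Atg16l1 and Map1lc3b were at -0.025 and -0.016 with library totals only, -0.025 and -0.016 with no filter, -0.019 and -0.0100 in DESeq2, -0.016 and -0.0088 on log2(FPKM + 1) and -0.019 and -0.0092 on log2(FPKM + 0.1). With the replicate block 23 members rose and 9 fell, as without it. Same-numbered libraries deviated together only weakly (r across genes of 0.037, 0.07 and 0.065), each correlating best with its own number. Libraries of different numbers had r from -0.072 to 0.017. A pairing is thus possible, but the labels do not say that the numbers pair samples, so the main fit had no block.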
